A study of Drosophila melanogaster with 4 samples.

Results

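The family described here consists of the most abundant 30 nt small RNA in Drosophila melanogaster male larvae of the third instar and of every shorter, longer or altered form of it. Tag counts were summed over the 4 libraries and the 30 nt tag with the most reads was taken. A tag, which is a distinct sequence with its read count, was a member when it was 15 to 34 nt long, held no undetermined base and shared an exact stretch of at least 15 bases with that RNA on the same strand. This gave 1456 members among 252353 distinct tags. Small RNA was sequenced from 2 libraries of males labelled 1.688x snapback, which express double-stranded RNA of the 1.688 satellite repeat, and 2 libraries of yw males, a laboratory reference strain. Each sample was the small RNA fraction of 50 whole larvae. What drives the snapback construct is not given in the sources used here. Separate cultures are not named for the replicates, so p-values rest on a spread among samples that could be purely technical.

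As background, fly ribosomes carry a very short rRNA named 2S. It arises when the precursor of the 5.8S rRNA is cut and a spacer is removed, and it stays paired with the other rRNAs of the large subunit. Its length lies close to that of piRNAs, so it is commonly recovered in fly small RNA libraries unless it is depleted. The most abundant 30 nt tag has the size and abundance of 2S rRNA, and the family is named for its length here because no genome sequence was at hand. The Ensembl annotation of assembly BDGP6 lists 20 genes of exactly 30 nt, of which 4 are 2S rRNA genes, 3 are 2S rRNA pseudogenes and 13 are transposable elements. Of the 7 2S copies, 3 are on the X chromosome and 4 on a separate rDNA scaffold. Tags were not matched to these copies by sequence.

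The reference form and its most telling shortened forms are printed here because the results turn on where they begin and end. Capitals mark the bases kept in the tag, lower-case letters mark the bases of the 30 nt RNA that the tag lacks, and positions are counted from 1 at the 5′ end.
full length: TGCTTGGACTACATATGGTTGAGGGTTGTA
bases 10 to 30: tgcttggacTACATATGGTTGAGGGTTGTA
bases 9 to 30: tgcttggaCTACATATGGTTGAGGGTTGTA
bases 13 to 30: tgcttggactacATATGGTTGAGGGTTGTA
bases 14 to 30: tgcttggactacaTATGGTTGAGGGTTGTA
bases 1 to 15: TGCTTGGACTACATAtggttgagggttgta
bases 1 to 17: TGCTTGGACTACATATGgttgagggttgta
bases 1 to 23: TGCTTGGACTACATATGGTTGAGggttgta
bases 1 to 26: TGCTTGGACTACATATGGTTGAGGGTtgta
bases 1 to 28: TGCTTGGACTACATATGGTTGAGGGTTGta
bases 3 to 23: tgCTTGGACTACATATGGTTGAGggttgta

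The full-length tag had 1945857 and 2765777 reads in snapback replicates 1 and 2, and 153789 and 106693 reads in yw replicates 1 and 2. The family as a whole had 2219255 and 3192492 reads in snapback and 188970 and 144094 in yw. Per library, the family took 41.6% and 41.0% of all listed reads in snapback against 0.924% and 0.949% in yw. The tag was chosen for its summed count, so these levels are a description. A larger amount of the RNA in the larvae and a higher recovery in the library cannot be told apart in such shares. All further shares are therefore shares of the member reads of a library, which compare the make-up of the family and not its amount.

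The depth behind these shares differed. Listed reads numbered 5330415 and 7782397 in snapback and 20453996 and 15183229 in yw, and the lowest listed count was 4. An absent tag could therefore hide up to 3 reads, which is 0.000135% and 0.000094% of member reads in the snapback libraries and 0.00159% and 0.00208% in the yw libraries. The snapback lists held 816 and 1005 members and the yw lists 310 and 327. Of all members, 149 were listed in every library, and these carried 98.5% and 99.3% of member reads in snapback and 96.6% and 93.1% in yw. Members listed in a single library numbered 837. Members listed in 1 or both libraries of 1 group and in none of the other numbered 982 for snapback and 191 for yw.

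Forms longer than 34 nt limit the yw shares. Tags of 40 nt that share 15 bases with the RNA lay outside the rule and had 68809 and 89089 reads in snapback, or 3.10 and 2.79 per 100 member reads. In yw they had 365670 and 322127 reads, or 194 and 224 per 100 member reads, so that most yw reads of the RNA were outside the members. The most common of these tags in yw had 269685 and 130760 reads there and 12 and 10 in snapback. It matched the RNA exactly over its first 26 bases, then carried T27C, matched for 3 bases more and departed from the RNA. The 10 bases of this tag from base 27 on also occurred in 61.4% and 23.7% of the 40 nt reads of yw that do not belong to the family, and in 0.124% and 0.0648% of those of snapback. Whether bases 27 to 30 of the tag are RNA or what follows it was not tested. In yw this tag outnumbered the full-length tag, with 175 and 123 reads per 100 full-length reads. With the 40 nt tags added, the family took 42.9% and 42.2% of all listed reads in snapback against 2.71% and 3.07% in yw. Full-length tags then made up 85.0% and 84.3% of family reads in snapback and 27.7% and 22.9% in yw. The genotype and the difference in 40 nt forms cannot be told apart, and every comparison of genotypes below is of tags of 15 to 34 nt.

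Within these tags the intact RNA dominated in every library, and the fragments made up more of the yw family than of the snapback family. The full-length share was 87.7% and 86.6% in snapback and 81.4% and 74.0% in yw, or 87.2% ± 0.740 against 77.7% ± 5.19 (SD, n = 2 each). The groups did not overlap, but the gap was 9.44 percentage points with both yw libraries and 5.77 without yw replicate 2. Tags that lost only 5′ bases made up 1.88% and 2.91% in snapback against 6.12% and 7.07% in yw. Tags that lost only 3′ bases made up 2.42% and 2.49% against 3.95% and 3.85%. Shortening of either end thus took a larger share in both yw libraries than in either snapback library. Pieces that lack both ends and match exactly were rare everywhere, at 0.0346% and 0.0407% in snapback and 0.176% and 0.193% in yw.

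Forms with added bases went the other way. Tags with extra 5′ bases made up 3.67% and 4.17% in snapback and 2.37% and 2.11% in yw. Tags with extra 3′ bases made up 0.160% and 0.202% against 0.0614% and 0.0493%. Among tags of 15 to 34 nt both kinds of extension thus took a larger share in snapback. The difference in the extended share, snapback minus yw, turned from 1.80 to −45.2 percentage points with the 40 nt tags added. The most common yw tag of 40 nt then counts as extended and as an internal mismatch, because its placement runs past T27C to base 30. With tags of 18 to 30 nt only, the difference was −0.0204. That limit removes every extension of the whole RNA by construction. Tags extended at both ends had 111 and 294 reads in snapback and 0 in yw, where up to 3 reads per tag would not be listed. Shortened forms with a non-matching end made up 0.808% and 0.598% in snapback and 2.38% and 4.06% in yw. This class includes full-size tags whose substitutions cut short the matching stretch, so it is not a measure of shortening alone. The 30 nt tag with G23T, G24T and G25T held 0.913% of member reads in yw replicate 2. The 30 nt tag with G2T held 0.819% in yw replicate 1. Tags with a mismatch inside the matching stretch made up 3.34% and 2.94% against 3.55% and 8.63%, so that the yw replicates differed more from each other than yw replicate 1 did from snapback.

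**Figure D1:**
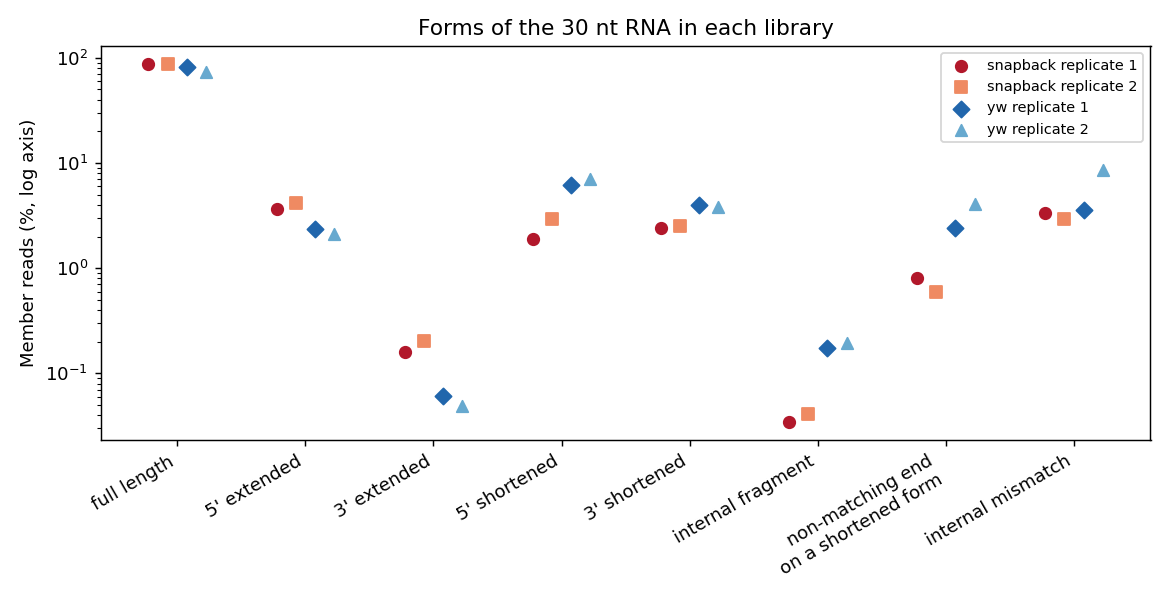
Share of member reads (%, log axis) in each structural form of the 30 nt RNA; each point is 1 library and there are no error bars. Full-length tags held 74.0% to 87.7% in all libraries, the shortened forms lay higher in the yw libraries, and the extended forms lay higher in the snapback libraries.

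For ends in sum, the 5′ end lay at base 1 in 93.9% and 92.4% of member reads in snapback and in 88.9% and 89.6% in yw. The 3′ end lay at base 30 in 96.5% and 96.6% against 95.2% and 88.2%. Full-size tags with substitutions near the 3′ end can count here as ending earlier. With whole tags placed, the values were 97.1% and 97.0% in snapback against 95.4% and 95.4% in yw, a difference of 1.66 percentage points. By matching stretch alone, the 5′ end differed by 3.91 percentage points and the 3′ end by 4.91. The former was −3.28 without the full-length tag. The latter was 1.41 when yw replicate 2 was left out and 8.42 when replicate 1 was. The exact two-sided permutation test of 2 against 2 libraries cannot give less than 0.333. Each of 6 compared measures, namely the full-length share, both intact ends, internal fragments, extensions and mismatches, reached that p and none can pass 0.05. A Benjamini-Hochberg adjustment over equal p-values leaves them at 0.333. Intervals for counting error (exact Clopper-Pearson, 95%) on the class shares were at most 0.453 percentage points wide, and they cover counting error only because reads were not collapsed to molecules.

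The 5′ cuts were spread over all positions that the length limit allows, but they were not even. All 15 shortened forms from a start at base 2 to a start at base 16 were listed in every library. The most common start was base 10, which leaves a 21 nt piece, the length of Drosophila siRNAs. That form had 8423 and 17977 reads in snapback and 2345 and 2044 in yw, or 0.380% and 0.563% of member reads against 1.24% and 1.42%. With the 40 nt tags added, this difference turned to 0.0274 percentage points higher in snapback. Those tags enlarge only the total, mostly in yw, and cannot add reads to this 21 nt form. Its share of the 5′-shortened reads was 20.2% and 19.4% in snapback and 20.3% and 20.1% in yw. The preference for base 10 among the 5′ cuts therefore lay within 1 percentage point in the 4 libraries, while the 5′ cuts as a whole took a larger share in yw.

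Around base 10 the genotypes had different profiles. Starts at bases 9 to 14 held 55.8% and 55.9% of 5′-shortened reads in snapback and 75.5% and 78.3% in yw. Starts at bases 2 to 8 held 40.1% and 39.1% against 21.1% and 16.7%. The 5′-shortened reads of yw were thus concentrated on the middle of the RNA, and short trims made up a larger part of those of snapback. As shares of all member reads, no start from base 2 to base 8 was higher in both snapback libraries. The start at base 9, a 22 nt piece, made up 0.203% and 0.302% of member reads in snapback and 0.955% and 0.915% in yw. The start at base 14, a 17 nt piece, had the widest ratio, with 0.0730% and 0.124% against 0.754% and 0.813%, a 7.97-fold higher mean in yw. The start at base 13, an 18 nt piece, made up 0.142% and 0.237% against 0.622% and 0.913%. At the starts from base 2 to base 8 the shares were closer, and those at bases 2, 6 and 7 overlapped between the genotypes.

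Of the 15 forms with a shortened 5′ end, 11 had a larger share in both yw libraries than in either snapback library, 0 had a larger share in both snapback libraries and 4 overlapped. The background for these counts was that, of the 149 members listed in all libraries, 53.0% had non-overlapping shares that were higher in yw and 17.4% non-overlapping shares that were higher in snapback. The shares of a library add up to the whole, so the lower full-length share of yw goes with higher shares of other forms by construction.

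**Figure D2:**
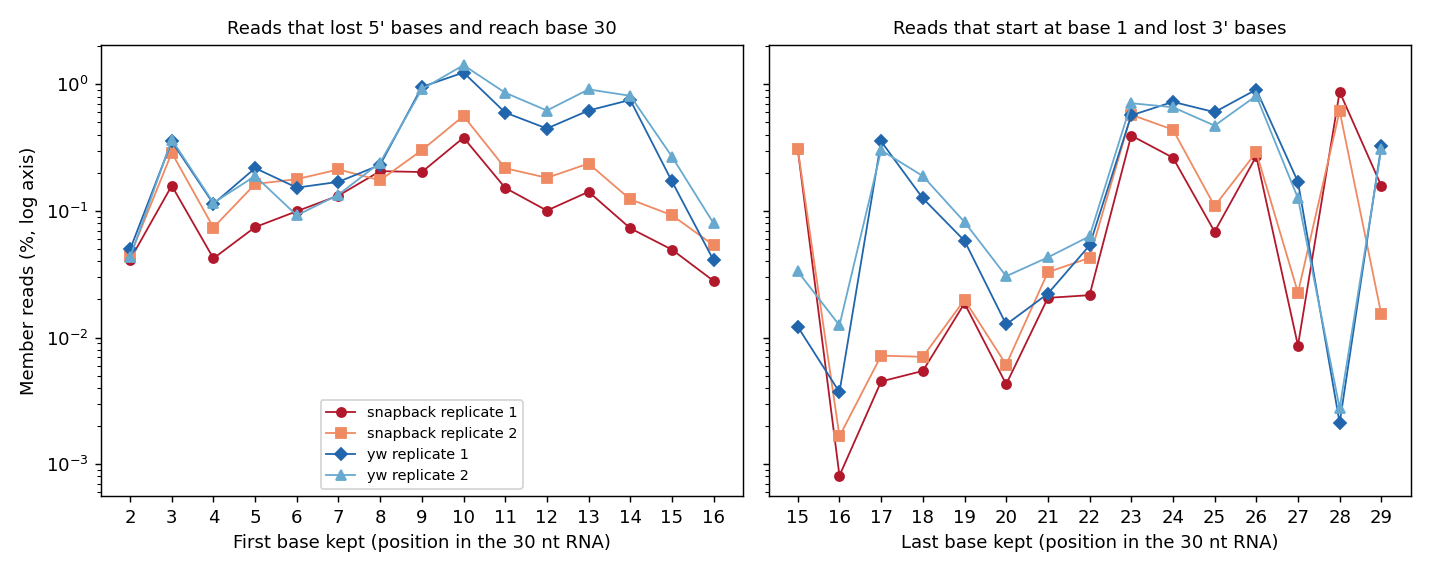
Share of member reads (%, log axis) by the first base kept among reads that reach base 30 (left) and by the last base kept among reads that start at base 1 (right), 1 line per library. Left, all libraries peak at base 10, with the yw libraries highest from base 9 to base 15; right, the snapback libraries have high points at bases 15 and 28 that the yw libraries lack, and the yw libraries are higher at bases 17 and 18.

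The 3′ cuts fell into separate peaks that differed by genotype. All 15 forms that start at base 1 and end between base 15 and base 29 were listed in every library, and 11 had a larger share in both yw libraries, 2 in both snapback libraries, and 2 overlapped. The background for these counts is again the 149 members listed in all libraries. Of these, 53.0% had non-overlapping shares higher in yw and 17.4% higher in snapback, and the shares add up to the whole. The 2 that were higher in snapback ended at base 28 and at base 15. The form ending at base 28 had 19373 and 19657 reads in snapback and 4 and 4 in yw, the lowest count that the lists hold. It made up 0.873% and 0.616% of member reads in snapback against 0.00212% and 0.00278% in yw, a ratio of means of 304. Next to it, the form ending at base 29 made up 0.158% and 0.0153% in snapback and 0.329% and 0.310% in yw, and the form ending at base 27 had a 9.47-fold higher mean in yw. The snapback peak was thus a single position wide.

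The form ending at base 15, the first 15 bases of the RNA, had 6805 and 9832 reads in snapback and 23 and 48 in yw. Its share was 0.307% and 0.308% against 0.0122% and 0.0333%, a 13.5-fold higher mean in snapback. The neighbouring form ending at base 16 had 18, 53, 7 and 18 reads in snapback replicates 1 and 2 and yw replicates 1 and 2. Bases 16 to 18 of the RNA, which follow the cut at base 15, are TGG. Among 40 nt tags that hold the whole RNA from their first base, 73.8% and 28.1% of reads in snapback continued with TGG after base 30, against 0% and 0% in yw. The most common bases at that place were TGC in yw replicate 1, at 37.2%, and ATC in yw replicate 2, at 41.1%. The bases that follow the RNA thus differed between the genotypes and between the yw replicates. The part of the TGG match in the share of the form ending at base 15 was not tested.

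The yw libraries had a peak of their own at base 17. The form ending there had 100 and 230 reads in snapback and 670 and 435 in yw, or 0.00451% and 0.00720% against 0.355% and 0.302%, a 56.1-fold higher mean in yw. The form ending at base 18 had a 25.2-fold higher mean in yw. A broader peak at bases 23 to 26 was shared by all libraries and held 41.2% and 56.8% of 3′-shortened reads in snapback and 71.1% and 69.0% in yw. Within it, the end at base 23 overlapped between genotypes, at 0.394% and 0.576% of member reads in snapback and 0.569% and 0.710% in yw. The end at base 24 made up 0.264% and 0.439% against 0.728% and 0.660%, and the end at base 26 made up 0.270% and 0.291% against 0.910% and 0.813%. With the 40 nt tags added, the ends at bases 23 and 24 were higher in snapback by 0.265 and 0.115 percentage points. Here too those tags enlarge only the total and add no reads to these forms. The share of the end at base 25 had a 6.05-fold higher mean in yw. The most common yw tag of 40 nt departs from the RNA just after base 26, and its part in these shares was not tested. Losses from the 5′ end and from the 3′ end were about equally common in snapback, with 0.778 and 1.17 5′-shortened reads per 3′-shortened read, while yw had 1.55 and 1.84.

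A single cut of the RNA would leave a 5′ piece and a 3′ piece, and the lists allow their counts to be set side by side. Pieces of 10 to 14 nt lie outside the member rule and are short enough to come from other RNAs. For a cut after base 10, the 5′ piece had 6952 and 13331 reads and the 3′ piece 3378 and 6950 in snapback, and in yw the 5′ piece had 850 and 1209 and the 3′ piece 1132 and 1237. The ratios of 5′ to 3′ piece for this cut were thus between 0.751 and 2.06. Neighbouring cuts were less even, with ratios of 0.212 and 0.228 in snapback and 0.0213 and 0.0346 in yw after base 11, and of 0.171 and 0.186 against 0.0723 and 0.0965 after base 13. For a cut after base 12, the ratios were 0.755 and 0.870 in snapback and 0.227 and 0.241 in yw. For a cut after base 15, where both pieces are 15 nt and both are members, the ratios were 10.9 and 5.74 in snapback and 0.299 and 0.417 in yw. One position further, after base 16, the 5′ piece was the rarer one in all libraries, with ratios from 0.0141 to 0.189. After base 17, the yw peak, the ratios were 0.0917 and 0.0790 in snapback and 2.53 and 1.26 in yw. Among the cuts after bases 14 to 16, the 5′ piece was in excess over the 3′ piece in snapback only at base 15, and the 3′ piece of that cut overlapped in share between the genotypes, at 0.0280% and 0.0537% against 0.0407% and 0.0798%.

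Of 105 possible exact fragments of 15 nt or more that lack both ends, 43 and 52 were listed in snapback and 29 and 24 in yw. By mean share over the 4 libraries the leading one was bases 3 to 23, a 21 nt piece, with 68 and 146 reads in snapback and 66 and 52 in yw, or 0.00306% and 0.00457% of member reads against 0.0349% and 0.0361%. In snapback replicate 1 alone, bases 9 to 28 had a larger share, at 0.00446%, against 0.000658% in replicate 2 and none listed in yw. Bases 10 to 24 had 5 and 22 reads in snapback and 39 and 44 in yw, and bases 3 to 24 had 19 and 70 against 31 and 15. Bases 3 to 23, 10 to 24 and 3 to 24 each joined a start and an end that were also common among the forms shortened at 1 end. Together with internal pieces that carry non-matching ends, fragments without either end made up 0.0572% and 0.0602% in snapback and 0.294% and 0.568% in yw, and the difference, snapback minus yw, was −0.372 percentage points with all libraries and −0.235 when yw replicate 2 was left out. The yw libraries had fewer member reads, so the listing minimum hides larger shares there than in snapback.

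**Figure D3:**
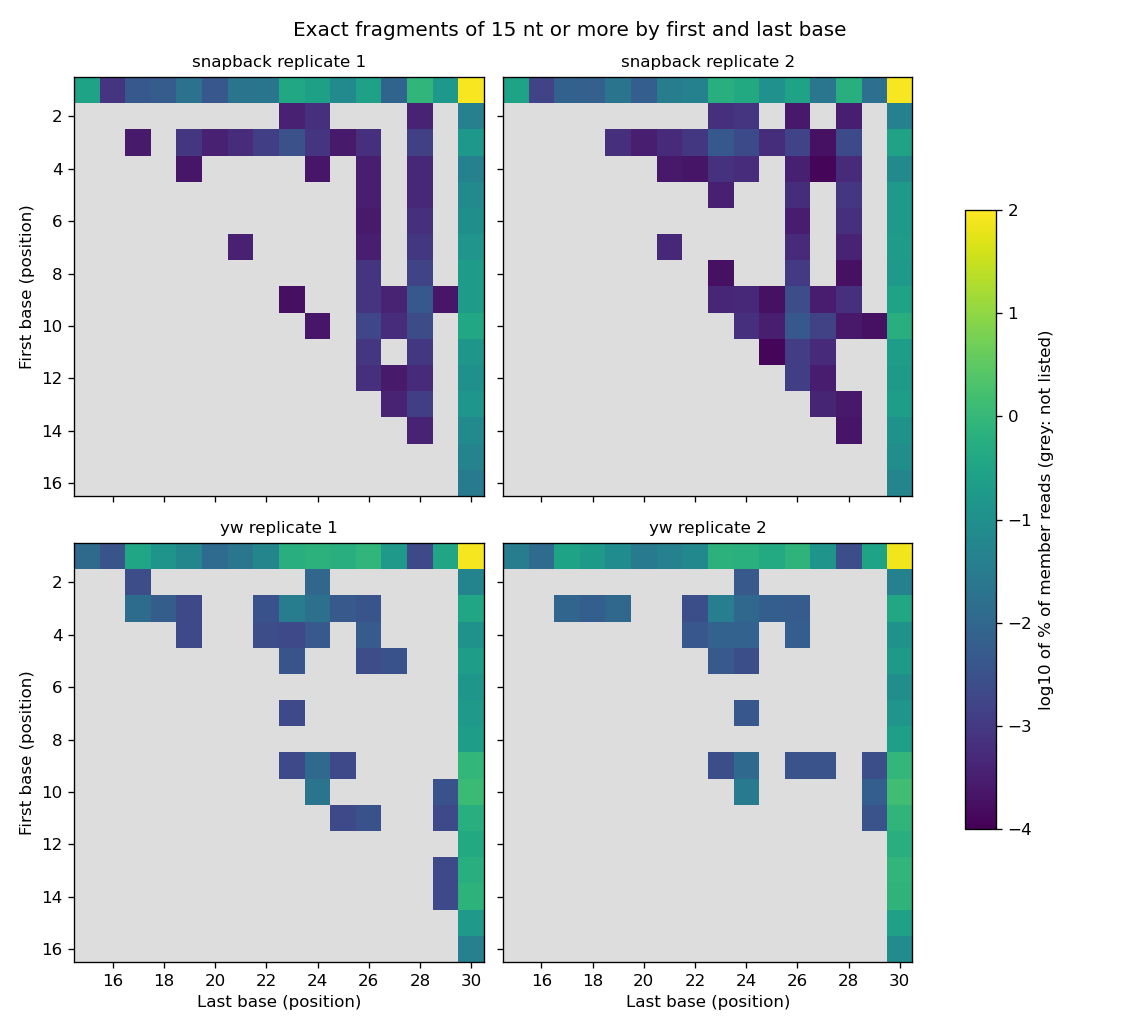
Every possible exact fragment of at least 15 nt by its last base (horizontal) and first base (vertical), coloured by log10 of its percentage of member reads, with 1 panel per library and grey for fragments that were not listed. Reads lie along the top row (intact 5′ end) and the right column (intact 3′ end). Below the top row, the snapback panels have a column of fragments ending at base 28 that was not listed in yw. Most shares in that column are below the smallest that the yw lists can hold, 0.00212% and 0.00278% for 4 reads.

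The bases added to the 5′ end were nearly uniform, as the leading extended forms show, with added bases in capitals.
5′ C: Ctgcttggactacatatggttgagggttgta
5′ GC: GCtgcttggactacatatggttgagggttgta
5′ C on bases 1 to 23: Ctgcttggactacatatggttgag
3′ A: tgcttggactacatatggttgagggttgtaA
3′ AG: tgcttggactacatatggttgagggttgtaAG
3′ AGAC: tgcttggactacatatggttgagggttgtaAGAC

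A single C before base 1 accounted for 99.8% and 99.8% of additions of 1 base in snapback and 99.3% and 99.1% in yw. The 31 nt tag with this C had 70523 and 114716 reads in snapback and 3949 and 2752 in yw, or 3.18% and 3.59% of member reads against 2.09% and 1.91%. It was the most abundant member after the full-length tag in snapback replicates 1 and 2 and in yw replicate 1. The addition of GC made up 0.259% and 0.211% in snapback and 0.0529% and 0.0312% in yw, and the most common addition of 3 bases was TGC, with 569 and 740 reads against 4 and 10. The additions C, GC and TGC are nested, each holding the shorter one next to base 1. The most common addition of 4 bases, GATC, did not continue this series and held only 18.1% and 17.7% of the 4-base additions in snapback. Whether these bases are those next to the RNA in its precursor was not tested.

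At the 3′ end the additions A, AG, AGA and AGAC were nested in the same way. The form with A made up 0.0873% and 0.110% of member reads in snapback and 0.0233% and 0.0298% in yw. The form with AG made up 0.0379% and 0.0360% against 0.0122% and 0.0118%. The form with AGAC had 198 and 498 reads in snapback and 0 in yw. Additions to the 3′ end were thus rarer than additions to the 5′ end in each library.

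The extra 5′ C was also found on shortened forms, at a frequency that differed between ends and, at some ends, between the genotypes. The direction between genotypes was not the same at every end, and these ratios were not tested. Per 100 reads without the C, the whole RNA had 3.62 and 4.15 reads with it in snapback and 2.57 and 2.58 in yw. Among tags that end at base 23 the values were 10.1 and 9.49 in snapback and 4.09 and 2.83 in yw. Among tags that end at base 25 they were 12.5 and 13.5 against 5.70 and 5.73. In snapback the C was more frequent at each of the ends at bases 23, 24 and 25 than on the whole RNA in both libraries. Tags ending at base 28, the single-position peak of snapback, had 3.64 and 4.39, close to the values of the whole RNA, and tags ending at base 21 had 3.28 and 3.43, below it. In yw the C was most frequent, among ends with at least 100 reads without it in each library, on tags that end at base 17, with 12.7 and 6.21 against 4 and 4.35 in snapback, and at base 18, with 12.2 and 5.88 against 9.92 and 7.56.

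Single-base changes were measured on 30 nt tags that run from end to end. Substitutions are written with the base of the RNA, its position and the base of the tag, and are given per 100 full-length reads. All 90 possible single substitutions were listed in both snapback libraries, and 79 in each yw library. Their sum was 3.55 and 3.54 in snapback and 4.11 and 7.74 in yw, while the median substitution had 0.0132 and 0.00947 against 0.0117 and 0.0155. A few substitutions thus carried much of the total, the leading 3 holding 26.1%, 42.0%, 53.9% and 71.5% in snapback replicates 1 and 2 and yw replicates 1 and 2. The leading altered tags are shown with the changed base in capitals.
A13C: tgcttggactacCtatggttgagggttgta
A30C: tgcttggactacatatggttgagggttgtC
G2T: tTcttggactacatatggttgagggttgta
G17T: tgcttggactacatatTgttgagggttgta
G21T G28T: tgcttggactacatatggttTagggttTta
G18T G28T: tgcttggactacatatgTttgagggttTta
G23T G24T G25T: tgcttggactacatatggttgaTTTttgta

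The frequent changes did not recur between libraries. Of the 6 single substitutions that reached 0.5 per 100 in any library, all 6 did so in 1 library only. A13C had 3.70 in yw replicate 2 and 0.0531, 0.0222 and 0.0143 in snapback replicates 1 and 2 and yw replicate 1. G2T had 1.01 in yw replicate 1 and was not listed in yw replicate 2. G17T had 0.714 in snapback replicate 2 and 0.0127 in snapback replicate 1. The others were G7T at 1.04 in yw replicate 1 and A30C and A15C at 1.06 and 0.768 in yw replicate 2. Some lower changes were present in all libraries, with A22C at 0.410 and 0.383 in snapback and 0.0884 and 0.217 in yw, and T29C at 0.255 and 0.151 against 0.0754 and 0.162. A8C was higher in both snapback libraries, at 0.261 and 0.221 against 0.00845 and 0.0262. By kind of change, A-to-C changes summed to 0.825, 1.08, 0.181 and 5.79 and G-to-T changes to 0.309, 0.962, 2.16 and 0.248 in the same order, so the leading kind differed between the yw replicates.

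Tags with 2 to 5 substitutions showed the same dependence on the library. Of 274 such tags, 214 were listed in a single library and 1 in all. Of the 24 that had at least 100 reads, 20 were listed in a single library. The tag with G6T and A8C had 9053 reads in snapback replicate 1 and was not listed elsewhere, and the tags with G21T and G28T, with G18T and G28T, and with G23T, G24T and G25T had 1783, 1639 and 1315 reads in yw replicate 2 only. Tags of this kind held 0.574% and 0.0437% of member reads in snapback and 2.05% and 5.74% in yw. The difference in the share of internal mismatches, snapback minus yw, was −2.95 percentage points with all libraries, −0.415 when yw replicate 2 was left out and −5.49 when replicate 1 was. It was smaller than the spread between the yw replicates.

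**Figure D4:**
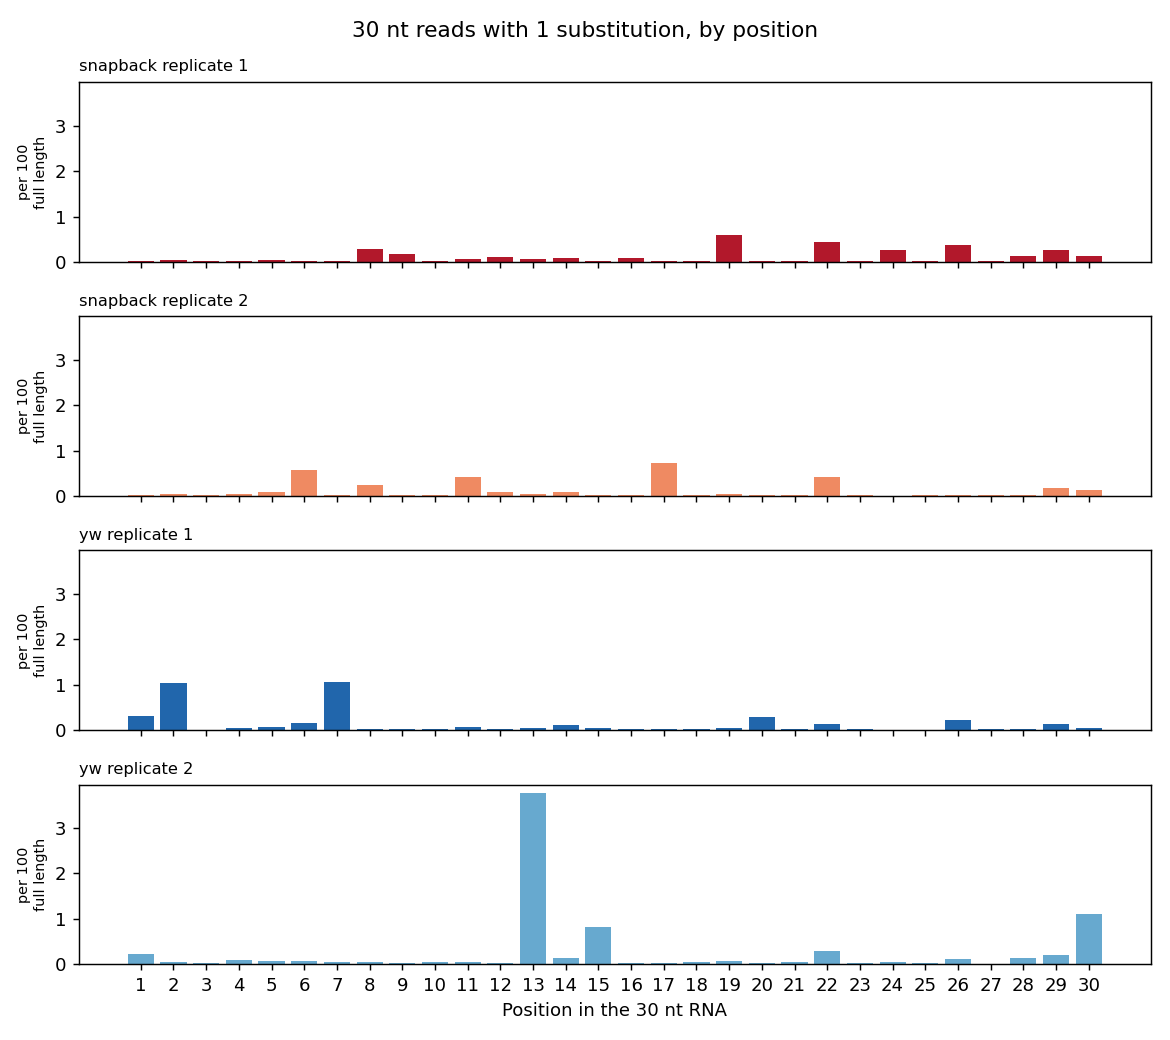
Reads of 30 nt with 1 substitution per 100 full-length reads, summed over the 3 possible changes at each position, with 1 panel per library on a common linear axis that starts at 0. The high bars stand at different positions in each library, with that of yw replicate 2 at position 13 above 3.

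The fragments weigh on the length classes in which other small RNAs are counted, and more so in snapback. Of all listed reads of 21 nt, the family held 10.4% and 18.5% in snapback and 0.298% and 0.559% in yw. Of the reads of 22 nt, a usual miRNA length, it held 5.93% and 9.21% against 0.136% and 0.157%. Of the reads of 26 nt, a piRNA length, it held 35.1% and 46.6% against 3.15% and 3.03%. Reads of 30 nt were almost entirely the family in both genotypes, at 98.5% and 99.4% in snapback and 97.5% and 97.7% in yw. At 31 nt, the length of the form with an added 5′ C, it held 92.2% and 94.9% against 58.3% and 57.9%. These shares follow the family's level, whose group means were 41.3% of all listed reads for snapback and 0.936% for yw.

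**Figure D5:**
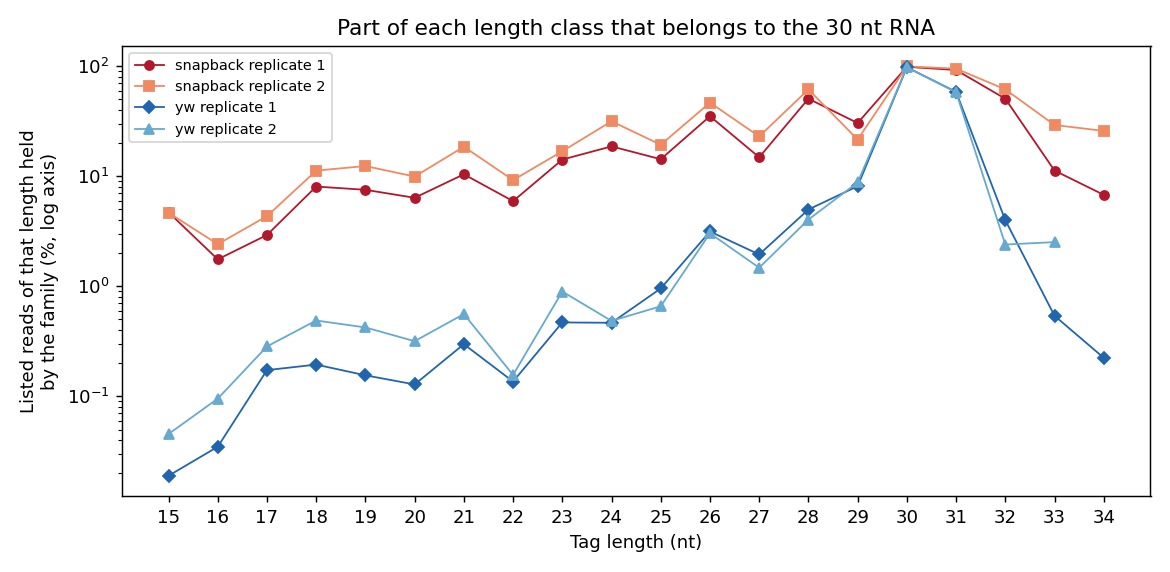
Share of all listed reads of a given length that belong to the family (%, log axis) for tags of 15 to 34 nt, 1 line per library; a share of 0 is not drawn. All libraries meet near 100% at 30 nt, and at every other length the snapback libraries lie above the yw libraries.

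In counts, tags were compared between the genotypes with the quasi-likelihood test of edgeR over the whole table. Of 30852 tags tested, 79.1% were called at an adjusted p under 0.05, with 36.8% higher and 42.3% lower in snapback. Among the members, 446 passed the filter on low counts and 385 of these were called, 384 higher and 1 lower in snapback. The other members were not tested. Members passed that filter mostly through the group in which the RNA is abundant, so the count restates the level of the family. The count of called members was 44 without the filter on low counts and 0 with the replicate number as a block. For the full-length tag, which was chosen by its counts, the fitted log2 difference of 4.57 is a description. The one member that was lower was an added C on bases 1 to 17, at −2.52 ± 0.94 with an adjusted p of 0.0341 by edgeR, and 0 members were called lower by DESeq2 or by edgeR with library totals. The median log2 difference of the tested members was 6.39 and that of all tested tags −0.71.

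The full-length share can be set beside the families of the next 3 most abundant 30 nt tags that are not members. These families were built by the same rule and share 0 tags with the members. Whether their 30 nt tags are the intact form of an RNA was not tested. In the families of the tags that begin TAAGAGGTGT and GGGGATGTAG, with 563 and 564 tags, the 30 nt form held 3.14% and 2.54%, and 2.14% and 2.38% of family reads in snapback, against 1.27% and 1.40%, and 0.537% and 0.390% in yw. In the family of the tag that begins AGGGTCGTGG, with 38 tags, the 30 nt form held 31.4% and 25.5% against 21.5% and 10.9%. These values rest on 762 and 56 reads of that form in snapback and only 14 and 6 in yw. The 30 nt form thus held a smaller share in each of these families and in every library than the 74.0% to 87.7% seen in the family of the dominant RNA, a comparison given without a test because each family was chosen by its 30 nt tag.

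Members whose longest exact stretch was just 15 bases were 135 tags with 11678 and 14932 reads in snapback and 1587 and 1306 in yw. Tags with a stretch of 14 bases, which lie just outside, were 77 with 749 and 496 reads against 44 and 305. A limit of 18 bases lowered the share of internal mismatches in yw replicate 2 from 8.63% to 2.85%, its difference between groups from −2.95 to −0.257 percentage points and the full-length gap from 9.44 to 6.33. Such a limit removes by construction every tag whose changes leave no exact stretch of 18 bases. A13C, at 2.74% of member reads in yw replicate 2, is among them. No tag of 15 to 34 nt shared 15 bases with the opposite strand, so the family came from a single strand in these lists.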

How the data were processed

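Small RNA was sequenced from 2 snapback and 2 yw samples, each of 50 male larvae of the third instar. The authors deposited a list of sequence tags with raw read counts for each library, per the file headers, and these counts were not normalized. The submitters' processing notes name the build dm3, and the trimming tool is not given in the sources used here. The tags carry no coordinates. The lowest listed count was 4, so an absent tag had at most 3 reads, and list totals are not full depths.

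Each tag of 15 to 34 nt was set on the 30 nt RNA along its longest shared exact stretch, and its matching part was the best ungapped local segment (match 1, mismatch −2). This step was tested on simulated data. The dominant RNA was not matched to a genome by sequence. Chromosomes recorded beside its sequences are those of the annotated 2S rRNA genes of the same length (Ensembl annotation, BDGP6).

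Exact permutation tests, two-sided, were used for shares. Tag counts were tested by edgeR 4.0.16 (quasi-likelihood, TMM, filterByExpr) under R 4.3.3, with calls at a Benjamini-Hochberg adjusted p under 0.05. DESeq2 1.42.0 was an alternative. Python 3.11.15 with pandas 2.3.3 and scipy 1.17.1 made the tables. The members, lists and tests were chosen with earlier results of these data known. Named tags were the full-length tag, the top 3 of each class by mean share, the 5 largest share differences in each direction among tags with a mean of at least 0.1% in a group whose groups did not overlap, and, for comparison only, the next 3 most abundant 30 nt tags. Other exact end forms, substitutions and 40 nt tags in the text were chosen after their values were seen. No label ties a replicate number to a shared batch, and the numbers did not enter the main test.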

Additional observations from a re-analysis of the deposited data

Results flagged for a closer look

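Tags of 15 to 34 nt with an undetermined base were outside the rule and used in no comparison. Those that share 15 bases with the 30 nt RNA numbered 200 tags with 22961 and 11541 reads in snapback and 480 and 201 in yw. They amounted to 0.698 ± 0.476 reads per 100 member reads in snapback against 0.197 ± 0.0810 in yw (SD, n = 2 each), and the signal drew attention because it lies in reads left out of the comparisons and was higher in both snapback libraries than in either yw library. The value of snapback replicate 1, at 1.03, was well above that of replicate 2, at 0.362, so the size of the difference rests on that library. What these reads would add to the mismatch shares was not tested.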

How the results depend on the processing

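Values here are differences in percentage points, snapback minus yw, unless stated, and the causes of changes were not tested. With the 40 nt tags added, the extended share reversed from 1.80 to −45.2, the full-length share was 59.4, the 3′ end at base 30 was 64.0, the 5′ end at base 1 was 1.00, internal fragments −0.517, internal mismatches −53.7 and the family's share of listed reads 39.7. The forms of bases 1 to 23, 1 to 24 and 10 to 30 then reversed to 0.265, 0.115 and 0.0274. For these exact forms the 40 nt tags enlarge the total, mostly in yw, and add no reads. In the extended and mismatch shares, the most common yw tag of 40 nt counts as both by its placement. With tags of 18 to 30 nt only, which leave out most extended forms, the extended share was −0.0204, the 5′ end 4.85 and the family share 38.5. A shared stretch of 18 bases gave −0.230 for internal fragments, −0.257 for mismatches and 39.9 for the family share. Counting distinct tags in place of reads reversed the 5′ end to −12.4 and mismatches to 0.787, and gave 20.1 for extensions, −4.81 for internal fragments and 1.88 for the family share. Without the full-length tag the 5′ end reversed to −3.28 and bases 1 to 23 to 0.860, while the 3′ end was 9.05, extensions 21.8 and internal fragments −1.42. Placing whole tags gave 2.89 for the 5′ end, 1.66 for the 3′ end and −0.146 for internal fragments. Exact forms only, chosen after seeing the data, gave 5.06, 1.92 and −0.168. Over listed reads of 15 to 34 nt the family share was 69.7. A shared stretch of 13 bases kept the direction of all 7 shares and a common minimum share that of the 6 it was applied to. Leaving out each library kept all 7 directions, but the 3′ end ranged from 1.41 to 8.42, mismatches from −5.49 to −0.415 and the full-length share from 5.77 to 13.1. Among named forms, G2T ranged from −0.805 to 0.0139, A30C from −0.746 to 0.0205 and A13C from −2.71 to 0.0212, each reversed without the yw library that held it (replicate 1 for G2T, replicate 2 for the others).

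The count of called members, 385 by edgeR, was 375 by DESeq2, 401 with library totals, 409 with absent tags at 3 reads and 44 without the low-count filter (35 higher, 9 lower). It was 0 by edgeR with the replicate block, where 227 members had an unadjusted p under 0.05. It ranged from 0 to 0 when any library was left out, where the lone library was assumed to vary like the other group, so these zeros say little about stability. Same-numbered libraries had a correlation of deviations of −0.00638 over 30852 tags, so the numbers gave no sign of pairing. No member was called lower by DESeq2 or with library totals. Of 267 alternative values for 27 named results, 209 stayed within the spread or on the same side, 45 moved, 7 reversed and 6 lost a call by edgeR. The 0.333 floor of the permutation test and the yw member reads limit all comparisons.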
